A study of Homo sapiens with 4 samples.

Results

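The genes of 10 metabolic nuclear receptors were chosen by name: RXRA, NR1H4, NR1H3, NR1I2, NR1I3, NR0B2, NR5A2, PPARA, PPARG and PPARD. They were 10 of the 19821 protein-coding genes placed on chromosomes 1 to 22 and X. Each gene was read with 100000 bp of flank on both sides.

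The data came from chromatin immunoprecipitation with sequencing (ChIP-seq) of MHCC97L, an established line of human hepatocellular carcinoma. The cells were labelled wild type and untreated, and 3 ChIP libraries were made from them, 1 each for H3K27ac, H3K4me1 and H3K4me3. An input library was the 4th sample and was not analysed here. H3K4me3 marks active or poised promoters, H3K4me1 marks enhancers and promoter edges, and H3K27ac marks promoters and enhancers in use. With 1 library per mark there was no replicate error and no test between conditions. One cell line is a limited model of liver tissue. Bulk chromatin does not tell a mark in fewer cells from a weaker mark in each cell.

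Each measurement was a peak summit, a single position with a score on the −log10 scale of a p-value or q-value, as the authors deposited it. Scores depend on read depth and background, which are unknown here, so they were ranked only within a list. The analysed lists held 70028 H3K27ac summits (median score 8.4), 86366 H3K4me1 summits (median 4.58) and 46078 H3K4me3 summits (median 8.23). Of them, 230 H3K27ac, 315 H3K4me1 and 148 H3K4me3 summits lay in the receptor windows. The label of the cells was read against marker genes. Of 8 hepatocyte genes, 4 had H3K4me3 within 1000 bp of a boundary, against 57.2% of all protein-coding genes. In 3 of the 8 (HNF4A, CEBPA and TF) it lay with H3K27ac at the same boundary, against 47.7%. TF has a boundary of TOPBP1 57 bp away. The 4th gene with H3K4me3, APOA1, had a score of 1.8, near the lowest of that list (1.31). ALB and TTR, which encode the plasma proteins albumin and transthyretin, lacked summits of all 3 marks across the gene and 1000 bp beyond it. H3K4me3 with H3K27ac at the same boundary was found at 2 of 3 epithelial genes, 0 of 3 endothelial genes, 1 of 3 myeloid genes (CD68, which has a boundary of EIF4A1 632 bp away) and 0 of 3 stellate and fibroblast genes. The 2 epithelial genes, KRT8 and KRT18, had the same best boundary scores, 93.1 for H3K27ac and 107 for H3K4me3. They may therefore be 1 site counted at both genes. Inside the gene, both marks were also found at the hepatocyte gene FOXA2, with H3K27ac of 56.4 and H3K4me3 of 95.1. The same held for the endothelial gene PECAM1, with 72.0 and 25.4, and the myeloid gene PTPRC, with 38.8 and 7.29. The epithelial gene CDH1 had H3K27ac of 54.2 inside it and H3K4me3 of 17.7 at a boundary. Over the whole gene, both marks were found at 4 of 8 hepatocyte and 3 of 3 epithelial genes, against 61.6% of all protein-coding genes. They were found at 1 of 3 endothelial, 2 of 3 myeloid and 0 of 3 stellate and fibroblast genes. The marker shares were thus no higher than the background for hepatocyte genes, and the part of other cell types in the results was not tested.

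Nuclear receptors are transcription factors that are switched by small lipophilic molecules. RXRA encodes the shared partner with which many of them bind DNA. In liver, the FXR protein (NR1H4) senses bile acids, LXRα (NR1H3) senses oxysterols, PXR (NR1I2) and CAR (NR1I3) sense drugs and other foreign compounds, and the PPARs sense fatty acids. SHP (NR0B2) lacks a DNA-binding domain and represses other receptors, and LRH-1 (NR5A2) is a receptor of bile acid and cholesterol metabolism.

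Promoter sequence was matched for 9 of the 10 members, with 21 start sites between them; NR0B2 was not matched. The 6 promoters shown were chosen after the marks were seen, to show starts that carried H3K4me3, H3K4me1 alone or no mark. They are from RefSeq on GRCh38.p14, run 5′ to 3′ from 250 bases before to 50 bases after the start on the gene's own strand, and have every CG dinucleotide in capitals. Those of RXRA (first start, chr9:134326205-134326504, plus strand), PPARD (chr6:35342308-35342607, plus strand), PPARG (second start, chr3:12288810-12289109, plus strand; sixth start, chr3:12351167-12351466, plus strand), NR1H4 (chr12:100503110-100503409, plus strand) and NR1I3 (chr1:161238154-161238453, minus strand) read as follows.
RXRA first start: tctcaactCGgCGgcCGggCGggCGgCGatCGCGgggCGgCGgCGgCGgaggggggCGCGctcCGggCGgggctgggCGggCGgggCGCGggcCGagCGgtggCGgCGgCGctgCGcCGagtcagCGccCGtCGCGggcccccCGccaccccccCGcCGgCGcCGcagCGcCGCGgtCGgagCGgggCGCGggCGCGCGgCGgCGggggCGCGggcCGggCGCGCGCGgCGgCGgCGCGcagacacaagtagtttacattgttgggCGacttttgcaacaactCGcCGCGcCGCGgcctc
PPARD start: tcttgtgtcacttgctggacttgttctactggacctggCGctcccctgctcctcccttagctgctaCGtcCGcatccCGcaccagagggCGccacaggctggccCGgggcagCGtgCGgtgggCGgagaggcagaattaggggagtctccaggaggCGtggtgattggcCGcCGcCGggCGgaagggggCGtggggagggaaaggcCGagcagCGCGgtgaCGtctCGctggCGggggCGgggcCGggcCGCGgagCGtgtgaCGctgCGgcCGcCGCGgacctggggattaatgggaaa
PPARG second start: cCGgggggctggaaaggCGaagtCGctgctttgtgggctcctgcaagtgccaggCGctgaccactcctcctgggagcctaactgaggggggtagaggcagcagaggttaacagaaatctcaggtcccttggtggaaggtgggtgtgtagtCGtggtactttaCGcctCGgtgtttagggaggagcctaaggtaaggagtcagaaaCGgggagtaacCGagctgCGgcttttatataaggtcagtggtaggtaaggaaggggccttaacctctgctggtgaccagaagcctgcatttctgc
PPARG sixth start: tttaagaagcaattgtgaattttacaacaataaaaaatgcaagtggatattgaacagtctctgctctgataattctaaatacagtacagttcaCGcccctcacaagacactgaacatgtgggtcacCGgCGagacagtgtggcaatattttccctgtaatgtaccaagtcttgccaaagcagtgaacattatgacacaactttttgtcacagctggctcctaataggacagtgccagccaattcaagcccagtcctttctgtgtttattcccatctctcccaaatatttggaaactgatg
NR1H4 start: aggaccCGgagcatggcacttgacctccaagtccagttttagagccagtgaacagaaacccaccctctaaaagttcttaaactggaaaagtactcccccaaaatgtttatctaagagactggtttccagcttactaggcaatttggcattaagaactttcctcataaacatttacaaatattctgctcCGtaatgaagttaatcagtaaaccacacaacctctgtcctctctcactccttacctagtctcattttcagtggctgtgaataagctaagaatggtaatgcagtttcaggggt
NR1I3 start: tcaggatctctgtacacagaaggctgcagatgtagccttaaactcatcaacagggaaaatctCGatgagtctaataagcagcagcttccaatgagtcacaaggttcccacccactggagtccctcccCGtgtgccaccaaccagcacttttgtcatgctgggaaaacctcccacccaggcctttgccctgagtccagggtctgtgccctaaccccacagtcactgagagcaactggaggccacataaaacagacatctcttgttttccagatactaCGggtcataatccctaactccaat

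The share of CG letters in capitals separated these promoters. The RXRA first start held 65 CG dinucleotides in 300 bases, an observed to expected CG ratio of 1.25, higher than in 99.7% of the 35116 promoters in the table. The PPARD promoter held 31 and had a ratio of 0.868, against a median of 0.579 over all promoters. The PPARG second start held 10, with a ratio of 0.448. The other 3 promoters shown were poor in CG: 3 dinucleotides at the PPARG sixth start, 3 at NR1I3 and 2 at NR1H4. The first start of NR5A2 held 0 in its 300 bases. Across the promoters on chromosomes 1 to 22 and X, H3K4me3 lay within 1000 bp of 78.6% of the 11654 with a ratio of 0.789 or more, and of 8.88% of the 11655 with the lowest ratios. The NR1H4 start therefore stood with the CG-poor promoters by sequence and with the marked ones by H3K4me3, since a summit of 33.6 lay 151 bp from it.

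At the gene boundaries, the members' counts of H3K4me3, alone and paired with H3K27ac, lay near the share among protein-coding genes at large, and H3K4me1 was more frequent among them. A boundary was marked when a summit lay within 1000 bp of the gene's start or end. H3K4me3 was found at 6 of the 10 members, against 57.2% of all protein-coding genes. H3K27ac was found at 7 members, against 54.5% of all protein-coding genes. H3K4me3 and H3K27ac lay at the same boundary in 4 members (RXRA, NR1H3, NR1H4 and PPARA), against 47.7% of all protein-coding genes. H3K4me1 was found at 4 members (NR0B2, PPARG, NR1H3 and NR1H4), against 12.5%. The boundary summits of NR0B2 and NR5A2 in the H3K27ac count scored under 3 (2.82 and 2.47). Among marked genes, the median best boundary score was 17.9 in members and 30.1 in all protein-coding genes for H3K27ac, 9.1 and 4.75 for H3K4me1, and 46.2 and 52.2 for H3K4me3. With 10 genes, these counts were not tested against the background.

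Counting over the whole gene, with 1000 bp beyond each end, gave more marked members. H3K27ac and H3K4me1 were each found in 9 members, against 64.9% and 40.6% of all protein-coding genes. H3K4me3 was found in 8 members, against 69.4%. Both H3K4me3 and H3K27ac were found in 8 members, against 61.6%, and NR1I3 was the member with no summit of any mark, against 25.3% of all protein-coding genes with none. The members are long genes, with a median of 88100 bp against 24500 bp, and a longer gene offers more room for a summit. Among genes of 20 kb or more, H3K27ac was found in 75.7%, H3K4me1 in 53.5% and H3K4me3 in 80.3%, and H3K4me3 and H3K27ac together in 72.3%. All 8 members of that length had all 3 marks.

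The width of the window and the choice of boundary moved these counts. Within 500 bp, 2 members had H3K27ac, 4 had H3K4me1, 4 had H3K4me3 and 2 had H3K4me3 with H3K27ac, against 48.3%, 7.33%, 40.8% and 31.4% of all protein-coding genes. Within 2500 bp, the members were 8, 7, 8 and 7 in the same order, against 59.4%, 25.0%, 65.1% and 56.1%. The share with the pair passed the background at 2500 bp and was under it at 500 bp. With scores of at least 10, H3K27ac was left at 5 members, H3K4me1 at 1, H3K4me3 at 5 and the pair at 4, against 46.7%, 1.13%, 52.0% and 40.6%. Within 1000 bp of a RefSeq start, among the 9 members in that table, 5 had H3K27ac, 4 had H3K4me1, 7 had H3K4me3 and 5 had the pair. The same was found at 57.6%, 7.6%, 62.0% and 53.1% of the 15812 protein-coding genes in that table. PPARG joined the members with the pair when its starts were used.

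**Figure D1:**
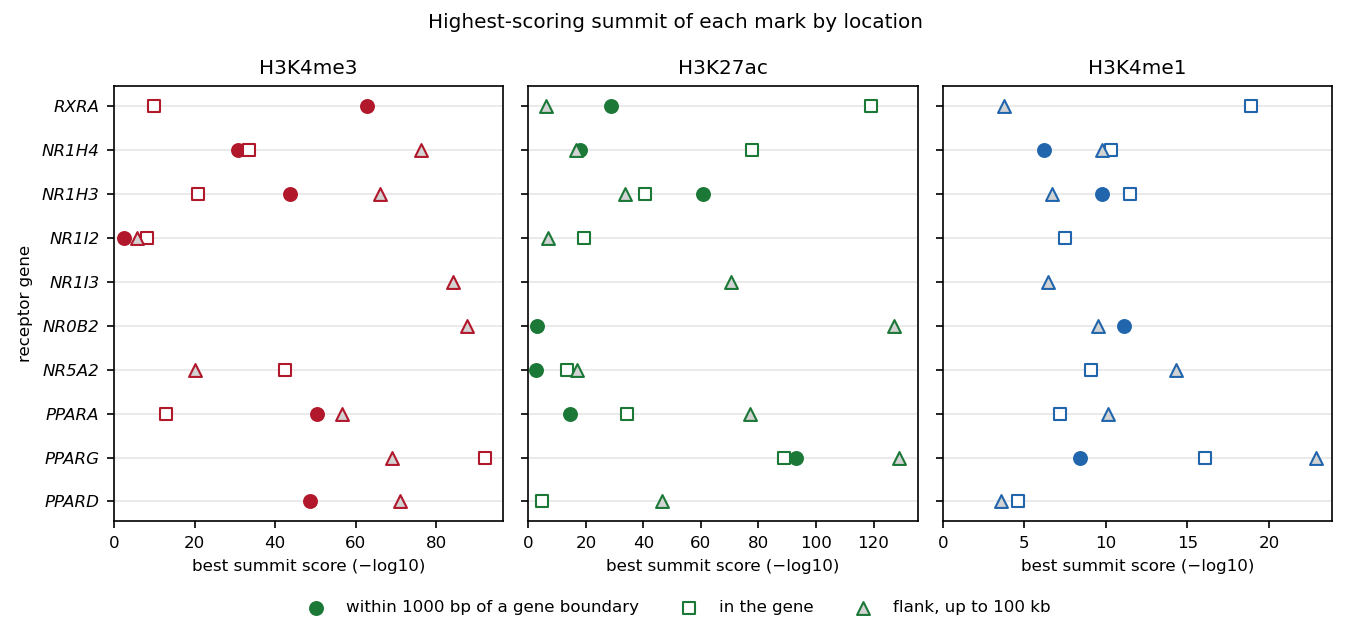
Highest summit score of each mark, on the authors' −log10 scale (x axis), for each of the 10 receptors (rows): circles, within 1000 bp of a gene boundary; squares, in the gene; triangles, in the flank. At the boundaries, PPARG has the highest H3K27ac score (93.0) and RXRA the highest H3K4me3 score (62.9), while NR1I3 has flank summits only.

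RXRA, the common partner, had marks at its start and along most of its body. At the first start, an H3K4me3 summit of 62.9 lay 933 bp inside the gene and another of 24.2 lay 770 bp before it, on either side of the CG-rich promoter shown above. An H3K27ac summit of 28.7 lay 564 bp before the start. The H3K4me3 score was higher than that of 66.5% of the genes marked at a boundary, and the H3K27ac score than that of 46.9%, so the boundary itself ranked near the middle of marked genes.

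The body of RXRA held its highest H3K27ac summit. A score of 119 was reached 80570 bp from the 5′ end, and 0.398% of the H3K27ac list scored as high or higher. An H3K4me3 summit of 10.0 lay 18 bp from it and an H3K4me1 summit lay 699 bp from it. A further H3K27ac summit of 62.2 lay at 51927 bp, 913 bp before the second RefSeq start, where H3K4me1 reached 12.1 and the nearest H3K4me3 summit was 3686 bp away. The second start thus carried H3K27ac and H3K4me1 without H3K4me3 within 1000 bp. Its promoter held 8 CG dinucleotides, against 65 at the first start.

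Summits were dense in RXRA and sparse around it. The gene held 6.13 H3K4me1 summits per 10 kb, more than 99.7% of the 14257 protein-coding genes of 10 kb or more, and 2.98 H3K27ac summits per 10 kb, more than 98.4%. The flanks of 100000 bp held 2 H3K27ac, 3 H3K4me1 and 0 H3K4me3 summits, and no other protein-coding gene lay in the window. In the 114131 bp of the gene, one stitched run of 14 distal H3K27ac summits spanned 35940 bp. Runs were built from distal summits alone (over 2500 bp from every gene boundary of any gene type), joined where neighbours lay under 12000 bp apart, and the summit at 51927 bp was not among them. Of the 15744 such runs in the list, 1.52% had as many summits or more.

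**Figure D2:**
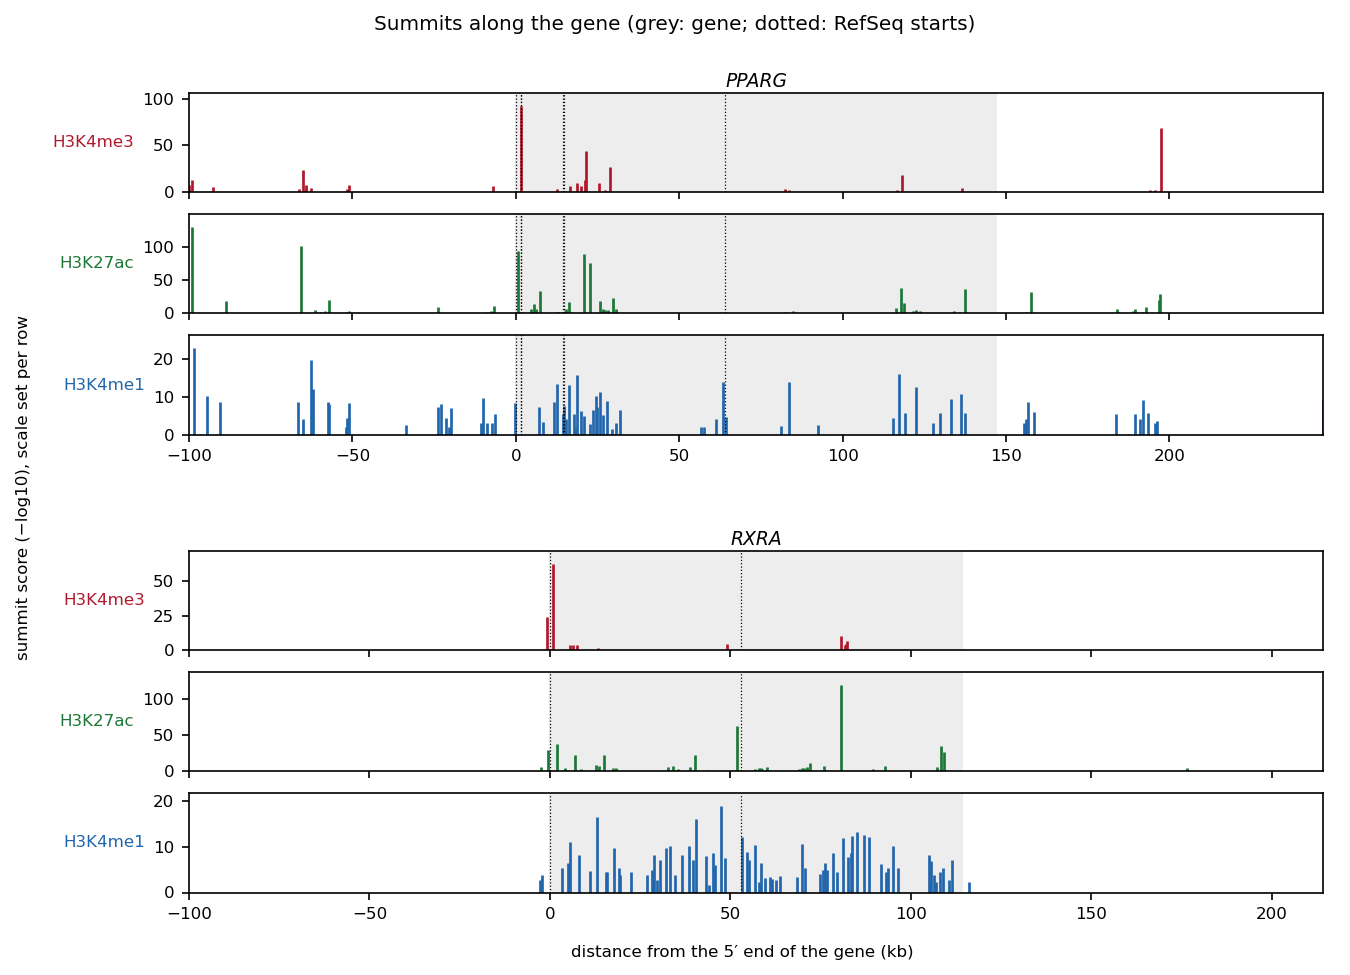
Summits of H3K4me3, H3K27ac and H3K4me1 along PPARG and RXRA; the height of each line is the score and the x axis is the distance in kb from the 5′ end of the gene, which is shaded. In RXRA the H3K27ac summits of 119 and 62.2 stand inside the gene, far from the H3K4me3 summit of 62.9 at its 5′ end, and in PPARG H3K27ac is high at the 5′ end (93.0) and upstream of it (129).

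The bile acid receptor gene NR1H4 had its highest H3K4me3 and H3K27ac scores at its outer start, at an inner start and deeper in the gene. At the outer start, H3K4me3 reached 30.7 at 105 bp and H3K27ac reached 17.9, with H3K4me1 of 6.18 on the same boundary. At the start in the RefSeq table, 29494 bp into the gene, an H3K4me3 summit of 33.6 and an H3K27ac summit of 31.2 lay 1 bp from each other. The highest H3K27ac summit of the gene, 77.6, lay deeper, at 55463 bp, with an H3K4me1 summit 341 bp away. That score was higher than the best of 90.5% of the genes with H3K27ac. Lower H3K27ac summits with H3K4me1 beside them lay at 10933, 70878 and 80135 bp, with scores of 5.04, 4.45 and 5.78. The window's highest H3K4me3 summit, 76.1, lay in the flank, 1036 bp from a boundary of GAS2L3.

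NR0B2, the SHP gene, is 2487 bp long and lies inside the span of NUDC. It had an H3K4me1 summit of 11.1 at 245 bp and an H3K27ac summit of 2.82 at 731 bp from its boundary. The H3K4me1 score was higher than that of 93.4% of the genes with H3K4me1 at a boundary, whereas the H3K27ac score was higher than that of 0.824% of the genes with H3K27ac there. The nearest H3K4me3 summit lay 7486 bp away. Its surroundings were rich in summits, with 34 H3K27ac, 36 H3K4me1 and 19 H3K4me3 in a window that holds 9 other protein-coding genes. The highest were an H3K27ac summit of 127 and an H3K4me3 summit of 87.5, both with TRNP1 as the nearest coding boundary (2422 bp and 1275 bp).

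NR5A2, the LRH-1 gene, had 5 of its 7 H3K4me3 summits in the first of 3 equal parts of the gene, against 1 of its 7 H3K27ac summits. The 2 marks were not fully apart. At 135081 bp an H3K27ac summit of 7.89 and an H3K4me3 summit of 3.06 lay at the same position. No H3K4me3 lay within 1000 bp of a boundary. Just beyond that limit, at 1336 bp, an H3K4me3 summit of 42.5 had an H3K27ac summit of 4.25 at a distance of 121 bp. A second H3K4me3 summit, 40.6 at 12417 bp and 2464 bp before the second RefSeq start, was 11202 bp from the nearest H3K27ac summit. Among the 9558 H3K4me3 summits in the list that scored as high or higher, 1.25% were that far from H3K27ac. Another, of 11.2 at 48037 bp, was 37279 bp from the nearest H3K27ac and 2 bp from an H3K4me1 summit. Of the 18816 H3K4me3 summits that scored as high or higher as this one, 5.94% were as far from H3K27ac. H3K27ac reached 13.5 at 88229 bp and 16.9 at 156508 bp, past the end of the gene. The H3K27ac summit that counted for its boundary scored 2.47 and lay at the 3′ end. No other protein-coding gene lay in the window.

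NR1H3, the LXRα gene, had both promoter marks, in a stretch shared with neighbours. At its outer start H3K4me3 reached 43.6 and H3K27ac 40.3, at 927 bp and 727 bp. The boundary of ACP2, which overlaps the gene, was nearer to both than that start, at 413 bp and 213 bp. The second RefSeq start of NR1H3, 595 bp into the gene, was nearer still, at 332 bp and 132 bp. Near the starts about 10 kb into the gene, H3K27ac reached 40.7 at 9510 bp and H3K4me3 20.8 at 10145 bp, away from ACP2. The highest H3K27ac summit of its boundaries, 60.7, lay past the 3′ end, 669 bp from a boundary of MADD. Marks at either outer boundary cannot be told apart from those of ACP2 and MADD. The 20734 bp gene held 4.34 H3K4me1 summits per 10 kb, more than 98.5% of genes of 10 kb or more, the best of them 11.5 at 6832 bp.

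**Figure D3:**
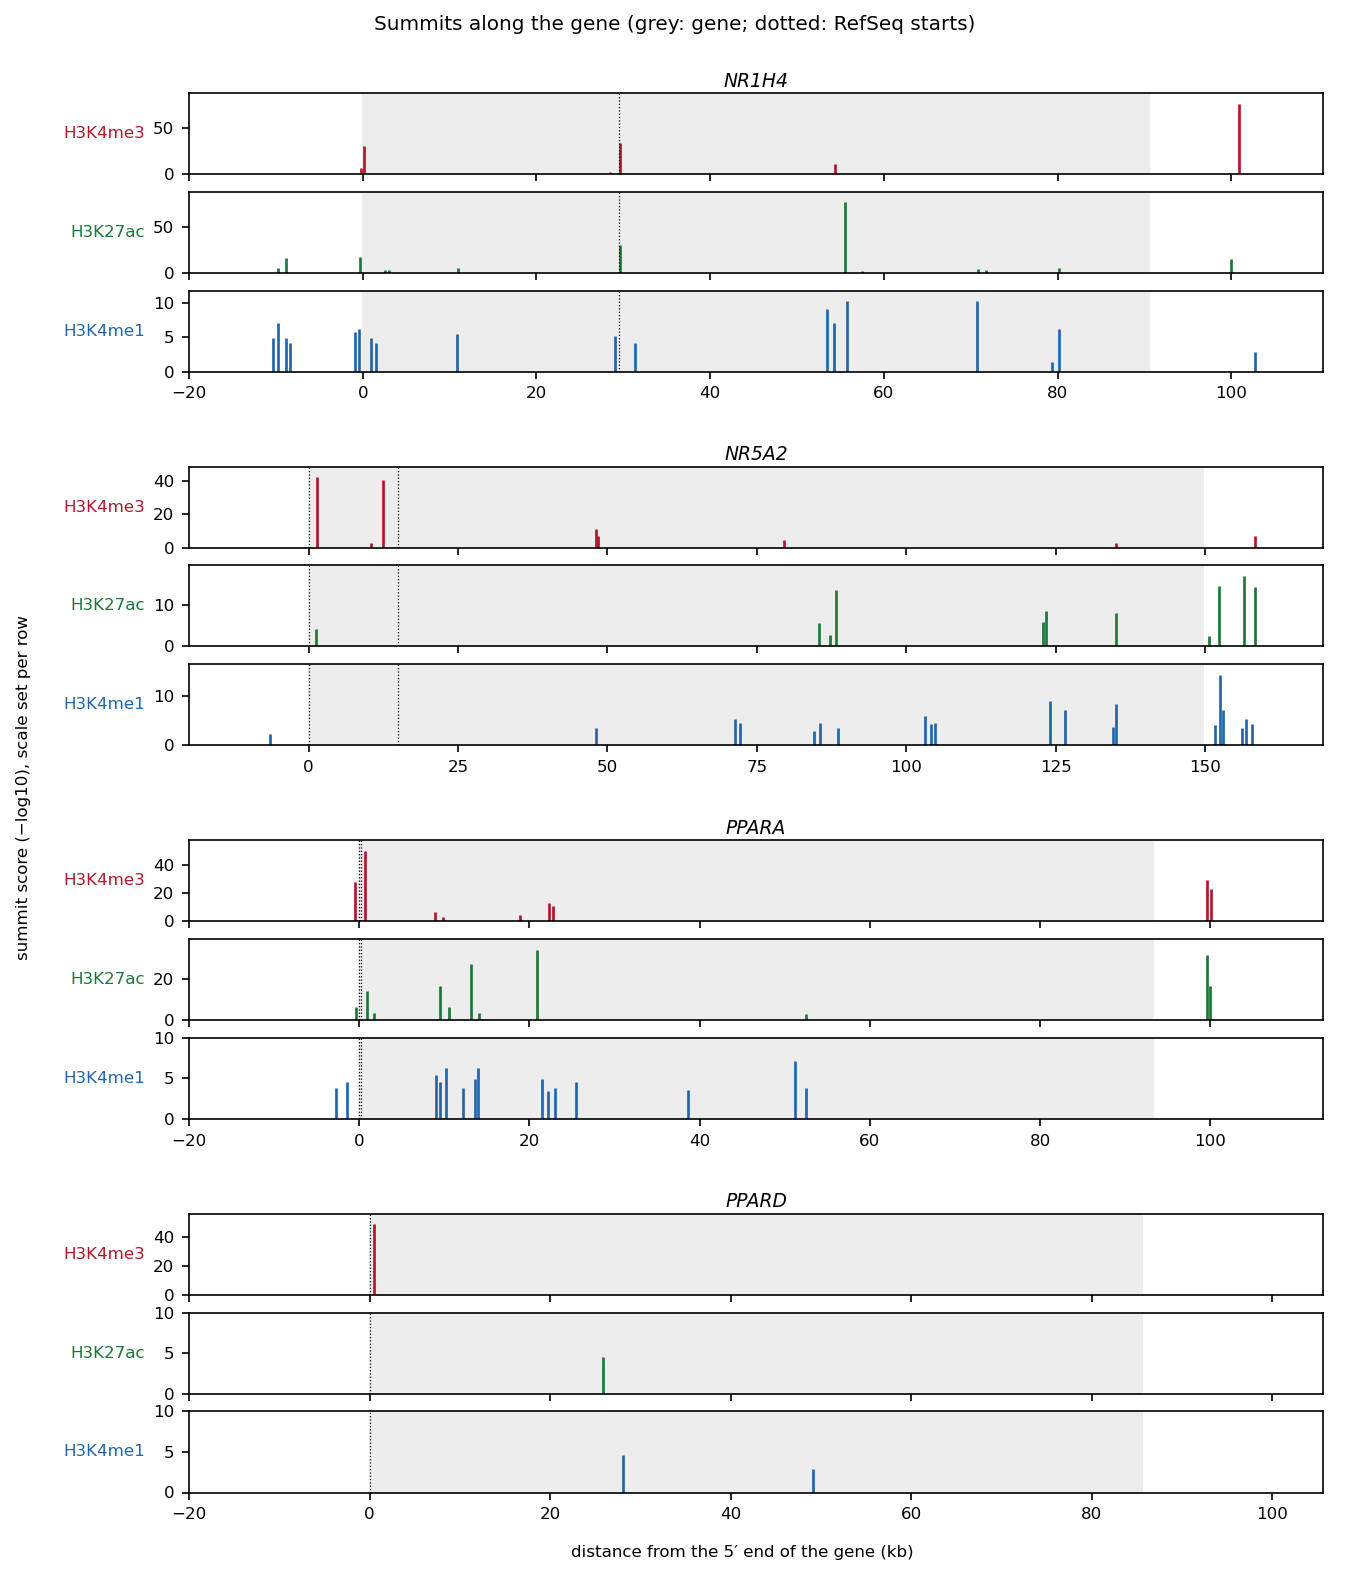
Summits of the 3 marks along NR1H4, NR5A2, PPARA and PPARD; heights are scores on a scale set for each row and the x axis is the distance in kb from the 5′ end. PPARD has 1 H3K4me3 summit (48.7) and 1 H3K27ac summit (4.57). In NR5A2 the H3K4me3 summits of 42.5 and 40.6 stand towards the 5′ end, while the highest H3K27ac summit in the gene (13.5) stands past its middle.

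The foreign-compound receptors had little or no mark at their boundaries. NR1I2, the PXR gene, had an H3K4me3 summit of 2.52 at 318 bp, a score higher than that of 0.353% of the genes with H3K4me3 at a boundary, and no H3K27ac nearer to a boundary than 1982 bp. Inside the gene, an H3K27ac summit of 19.3 lay at 13400 bp with an H3K4me1 summit of 7.47 only 15 bp away, and H3K4me3 reached 8.07 at 16718 bp. The whole window held 3 H3K27ac, 4 H3K4me1 and 6 H3K4me3 summits. NR1I2 was thus marked inside the gene more than at its start.

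NR1I3, the CAR gene, lacked all 3 marks inside the gene and up to 1000 bp beyond it. The nearest H3K27ac summit lay 3436 bp, the nearest H3K4me3 summit 3458 bp and the nearest H3K4me1 summit 28264 bp from a boundary. TOMM40L overlaps NR1I3, and a boundary of TOMM40L was 173 bp from that H3K27ac summit (6.74) and 151 bp from that H3K4me3 summit (48.8). Its window was not empty: 11 H3K27ac and 18 H3K4me3 summits lay in the flanks, among 13 other protein-coding genes. The highest were H3K4me3 of 84.2 at 190 bp from SDHC and H3K27ac of 70.3 at 256 bp from DEDD. The gene without a mark therefore stood between marked neighbours.

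The 3 PPAR genes differed from one another. PPARA, the main fatty acid oxidation receptor of liver, had H3K4me3 of 50.3 at 689 bp and of 28.2 at 477 bp before the start, with H3K27ac of 14.3 at 865 bp. Its H3K27ac was higher inside the gene, at 27.3 (13078 bp) and 34.4 (20877 bp). The promoter of its second start had a GC content of 86.7% and 52 CG dinucleotides. The highest H3K27ac summit of the window, 77.2, lay 81171 bp before the start. It was 1666 bp from a boundary of a gene that is not protein-coding, so it was not distal. CDPF1 has a boundary 257 bp from the 3′ end of PPARA, where no boundary summit was found.

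PPARG, the receptor best known for fat cell differentiation, had the highest boundary H3K27ac of the set. That summit scored 93.0 at 709 bp, higher than in 96.7% of the genes with H3K27ac at a boundary. H3K4me3 reached 92.1 at 1447 bp, outside the 1000 bp limit of the gene boundary and 245 bp before the second RefSeq start. Counted by RefSeq starts, PPARG therefore had both marks. Further H3K27ac summits of 88.7 at 20901 bp and 75.7 at 22787 bp stood beside an H3K4me3 summit of 43.7 at 21604 bp. The sixth start, 64049 bp into the gene, had an H3K4me1 summit of 14.0 within 1000 bp, while the nearest H3K27ac summit was 18184 bp and the nearest H3K4me3 summit 18325 bp away. The sixth start thus had H3K4me1 nearby without either of the other marks.

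The region before PPARG was also marked. An H3K27ac summit of 129 lay 99098 bp and another of 100 lay 65841 bp upstream of the gene, with SYN2 as the nearest coding boundary to the first, at 3762 bp. An H3K4me1 summit of 22.9 lay 98376 bp upstream. The longest run of distal H3K27ac summits held 20 of them over 39505 bp, starting 8822 bp before the gene, and 0.514% of all such runs had as many or more. The summit of 93.0 lies within that span and is not distal, so it is not counted in the run.

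PPARD, a receptor expressed in many tissues, had a promoter with H3K4me3 alone. Its H3K4me3 summit of 48.7 lay at 480 bp, and the nearest H3K27ac summit was 25337 bp away. Of the 7835 H3K4me3 summits that scored as high or higher, 90.3% had H3K27ac within 1000 bp and 35, or 0.447%, were as far from it as this one. H3K4me3 without H3K27ac at a boundary was found at 8.94% of protein-coding genes, with a median H3K4me3 score of 14.0. The PPARD promoter shown above is rich in CG and holds 3 GC boxes. That nearest H3K27ac summit, of 4.57, was the only 1 in the gene body of 85621 bp. The body also held H3K4me1 summits of 4.58 and 2.9, the sparsest of the members of 20 kb or more.

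The receptors held between 0 and 40 active distal sites each, that is, distal H3K27ac summits with H3K4me1 within 1000 bp. Of 147 distal H3K27ac summits in the windows, 115 (78.2%, Wilson 95% interval 70.9 to 84.1) had H3K4me1 within 1000 bp, against 65.9% (65.5 to 66.4) of 44074 in the whole list. H3K4me3 lay within 1000 bp of 27.2% (20.7 to 34.9) of the distal H3K27ac summits of the members, against 29.0% (28.5 to 29.4) in the whole list. Of 242 distal H3K4me1 summits of the members, 55.8% (49.5 to 61.9) had H3K27ac within 1000 bp, against 49.6% (49.3 to 50.0). The intervals cover counting error only, and neighbouring summits of 1 gene are not independent.

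PPARG and RXRA held 68 of those 115 active distal sites. PPARG had 40, of which 22 lay in the gene and 18 in its flanks, and RXRA had 28, all in the gene. Per 100 kb of window this came to 11.5 sites for PPARG, more than at 99.8% of protein-coding genes, and 8.91 for RXRA, more than at 99.1%. NR1H4 had 11, NR0B2 10, PPARA 9, NR5A2 8 and NR1H3 7, and all 10 of NR0B2 lay in its flanks. NR1I2 and NR1I3 had 1 each and PPARD had 0. The median over the 10 members was 3.12 sites per 100 kb, against 0.69 over all protein-coding genes. These ranks and medians were not matched for gene length or for the number of neighbouring genes, and the members are longer genes. Neighbours in the order from NR1H4 to NR1H3 differ by 1 site, which without replicates is no ordering. With a score of at least 10 required in both marks, 9 of the 115 sites remained.

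**Figure D4:**
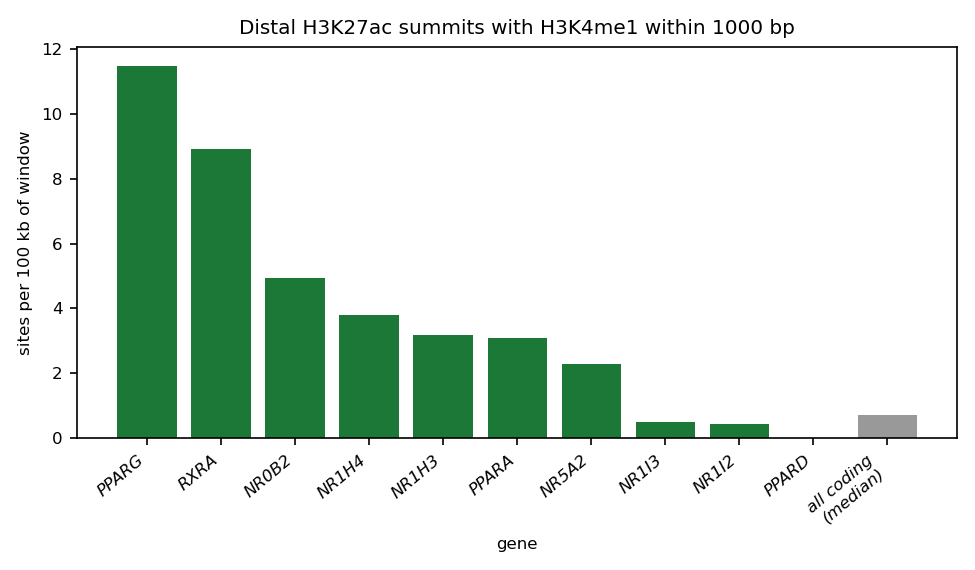
Active distal sites (distal H3K27ac with H3K4me1 within 1000 bp) per 100 kb of window for the 10 receptors, beside the median over all protein-coding genes. PPARG (11.5) and RXRA (8.91) stand above the other receptors, and PPARD is at 0.

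The active distal sites of PPARG and RXRA differed in H3K4me3. At PPARG, 20 of the 40 sites also had H3K4me3 within 1000 bp, against 3 of 28 at RXRA. H3K4me1 without H3K27ac was found at 27 of 71 distal H3K4me1 summits of PPARG and at 34 of 68 of RXRA. NR1H3 had H3K4me3 at 4 of its 7 active distal sites.

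Within the genes, the pooled position of summits was near that in other genes of that length, while single members differed. In members of 20 kb or more, 47.9% of H3K27ac, 38.3% of H3K4me1 and 66.7% of H3K4me3 summits lay in the first of 3 equal parts of the gene, counted from its 5′ end, against 49.9%, 39.9% and 68.1% in all protein-coding genes of that length. RXRA and PPARG gave 34 and 29 of those 96 H3K27ac summits. PPARA had 7 of 8 H3K27ac, 10 of 13 H3K4me1 and 6 of 6 H3K4me3 summits in that first part. NR5A2 had 1 of 7 H3K27ac and 1 of 13 H3K4me1 summits there, against 5 of 7 for H3K4me3, and NR1I2 had 0 of 2 H3K27ac and 0 of 4 H3K4me1. The 8 members of 10 kb or more had a median of 0.926 H3K27ac, 1.3 H3K4me1 and 0.597 H3K4me3 summits per 10 kb, against 0.243, 0.0 and 0.246 in all protein-coding genes of 10 kb or more.

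The 21 member promoters were searched on both strands for the letters of known binding sites. The nuclear receptor half-site AGGTCA was found in 6 of 21 promoters, against 13.8% of all promoters in the table, and at the PPARG second start it lay 14 bases before the start. The second and the third PPARG start are 10 bp apart, so that their promoters overlap and the same AGGTCA and TATAAA are counted in both. The full repeats AGGTCANAGGTCA and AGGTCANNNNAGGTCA and the inverted repeat AGGTCANTGACCT, all of which contain the half-site, were in 0 member promoters, against 8, 7 and 0 of the 35116. The GC box GGGCGG was in 7 of 21 member promoters, against 45.0% of all. The second PPARA start held 9, the first PPARA start 8 and the first RXRA start 6. The PPARA promoters overlap, so some of their GC boxes are counted in both. CCAAT was in 5 and TATAAA in 3 of the 21, against 34.6% and 11.5%. A match describes letters in a window of 300 bases and is not a bound site.

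The genes that work with these receptors were read by the same rule, with H3K4me3 and H3K27ac at the same boundary in 47.7% of all protein-coding genes. Both marks were found at 14 of 23 other nuclear receptors, among which NR2C1 (74.6) and HNF4A (71.9) had the highest boundary H3K4me3. They were found at 14 of 18 coregulators, with boundary H3K4me3 highest at NCOA3 (91.2) and MED1 (87.5). NCOA3 has a boundary of SULF2 534 bp away. RXRG was the other nuclear receptor without any mark in the gene. Coregulators, which bridge receptors to the transcription machinery, had no unmarked gene. Among all protein-coding genes, 25.3% had no mark, and the lists were not matched to them for gene length.

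The target genes were marked less evenly. Both marks lay at 2 of 12 targets of FXR, SHP and LRH-1. Boundary H3K4me3 was highest at FGFR4 (40.3), which had both marks, and at SLC27A5 (22.9), which did not have them at the same boundary. CYP7A1, the rate-limiting enzyme of bile acid synthesis, CYP8B1, another enzyme of it, and SLC10A1, the bile acid importer, had no summit of any mark. Both marks lay at 5 of 11 LXR targets, with boundary H3K4me3 highest at LPCAT3 (87.4) and SCD (69.3), and PLTP had no mark. Among PXR and CAR targets it was 2 of 13, while CYP2C8 and SULT2A1 had no mark. Boundary H3K4me3 was highest there at ABCC2 (105), which had no H3K27ac at a boundary, and at ALAS1 (75.9), which had both marks. Within 2500 bp of a boundary, both marks lay at 5 of the 13, against 56.1% of all protein-coding genes, and at 3 of the 12 targets of FXR, SHP and LRH-1. Among PPAR targets it was 9 of 20, with H3K4me3 highest at HADHA (80.7), whose boundary lies 307 bp from HADHB, and EHHADH (72.6). FABP1, FABP4, FGF21 and LPL, together with ADIPOQ, had no mark. Genes without a mark were thus 3 of 12, 1 of 11, 2 of 13 and 5 of 20 in the 4 target lists, against 25.3% of all protein-coding genes. Counted anywhere in the gene, both marks were present at 21, 17, 6, 7, 7 and 13 genes of the 6 lists in the order given, against 61.6% of all protein-coding genes.

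**Figure D5:**
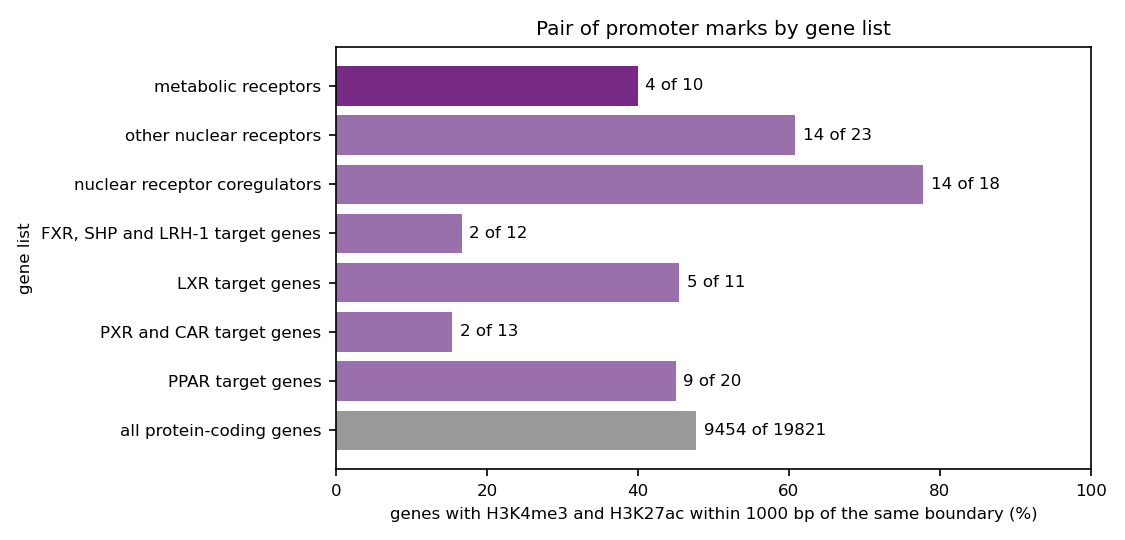
Share of genes with H3K4me3 and H3K27ac within 1000 bp of the same boundary in the 6 lists of related genes, beside the receptors and all protein-coding genes. The lists run from 14 of 18 coregulators to 2 of 13 PXR and CAR targets, with 9454 of 19821 over all protein-coding genes.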

How the data were processed

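MHCC97L cells gave 4 samples, 3 with a summit list and 1 input library that was not analysed here. MACS2, Bowtie, Picard and deepTools, and the build hg38, are named in the submitters' processing notes. Their versions and settings, and any use of input as control, are not given there. The peak names show that the authors called peaks per library. The deposited scores are −log10 values of a p-value or q-value (which one is not given). Read depth is unknown, so scores were compared only within a list.

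Summits on chromosomes 1 to 22 and X were kept; 273 H3K27ac, 61 H3K4me1 and 185 H3K4me3 summits elsewhere were left out. Gene positions came from NCBI RefSeq on GRCh38.p14, which has the coordinates of hg38. From that table, 679 genes (153 protein-coding) listed with scaffold positions were left out, leaving 58419 genes of all types. Starts, strands and promoters came from a RefSeq table of 35116 promoters. Summits were counted within 1000 bp of a boundary, inside the gene, in the flank of 100000 bp, and as distal; the counting was tested on simulated data. The members and lists were chosen with earlier results of these data known. Named sites were each member's highest summit of each mark at a boundary, in the gene and in the flank, and some sites beside RefSeq starts were added after their values were seen. In each list, genes named were the 2 highest in boundary H3K4me3 and up to 4 without a mark. Intervals are Wilson 95% intervals (SciPy 1.17.1, Python 3.11.15, pandas 2.3.3). With 1 library per mark no test between groups was made. Alternatives were other windows, a score of at least 10, shorter flanks and counting anywhere in the gene.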

Additional observations from a re-analysis of the deposited data

How the results depend on the processing

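Of 48 recomputed values, 31 stayed within 1.5 times the main value and 17 did not. At a boundary window of 500 bp, 2 members had H3K27ac and 2 had both H3K4me3 and H3K27ac (the pair). At 2500 bp, 7 members had H3K4me1, 7 had the pair, and 5 PXR and CAR targets had the pair, the last an alternative chosen after seeing the data. With a score of at least 10, H3K4me1 was left at 1 member, active distal sites numbered 9, and the windows held 95 H3K27ac, 35 H3K4me1 and 71 H3K4me3 summits. Counted anywhere in the gene, 9 members had H3K4me1 and 8 had the pair. With the gene body alone, there were 68 active distal sites and 96 H3K27ac, 162 H3K4me1 and 48 H3K4me3 summits; with flanks of 50000 bp there were 90 H3K4me3 summits. Narrower windows and higher scores leave fewer summits by construction. H3K4me3 at a boundary stayed between 4 and 8 members. No paired analysis was possible because each mark had 1 library. Depth is unknown, so a missing summit means that none was called, not that the mark was absent.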
